A study of Homo sapiens with 2 samples.

Results

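The HOX genes are the 39 members of the HOXA, HOXB, HOXC and HOXD clusters, chosen as every table entry whose symbol is the cluster name followed by digits only, of 53737 genes in all. They were described in 2 RNA-seq libraries of SK-ES-1, a cell line established from an Ewing sarcoma, a bone tumour, and labelled as wild type with bone as its tissue. There was 1 library of slow-cycling cells (SCCs) and 1 of non-slow-cycling cells (non-SCCs), and no treatment is labelled. Both libraries come from the 1 line, so nothing here extends to other Ewing sarcomas, and how slow-cycling cells were separated is not given in the sources used here. The comparison asks whether the HOX pattern of this line differs between cells that divide slowly and the rest.

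HOX genes encode homeodomain transcription factors that give cells their position along the body axis and the limbs. Within a cluster the genes lie in a fixed order, with anterior (3′) genes used in the hindbrain and neck and posterior (5′) genes in the lumbar region, tail, distal limbs and genital tract, and the order of genes is kept between clusters so that genes of like place form paralog groups. Tumour cell lines often keep the HOX pattern of their cell of origin or switch it on anew, and posterior HOXD genes are known to be active in Ewing sarcoma. Here paralog groups 1 to 3 are called anterior, 4 to 8 central and 9 to 13 posterior.

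Levels are given in per-million units, which are 2 raised to the deposited log2 value. Comparing levels between genes takes the values as per transcript length, which was inferred and is not stated in the sources used here. The deposited values appear to be cut at 1 unit, so a gene listed at 0 may have been below that cut or not estimated. All 13 protein-coding mitochondrial genes, which every cell uses, were listed at 0 too, so a 0 is not shown to be a lack of RNA. Read depth was unknown. Each group has 1 library, so differences between them lack a replicate check and could not be tested. A gene was compared when it had at least 2 units in at least 1 library. Of the 39 HOX genes 24 did, 4 were above 0 but below that minimum, and 11 were listed at 0 in both libraries. In RNA from a bulk of cells, fewer cells that express a gene and less RNA per cell cannot be told apart.

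All 10 markers of Ewing sarcoma were above the minimum, and their levels summed to 2703 units in slow-cycling and 2726 in other cells. CAV1 alone gave 1434 and 1456 of these units. Of the 10, 6 were higher and 4 lower in slow-cycling cells. Their log2 ratios ran from -0.30 (NR0B1) to 0.24 (LIPI), with a median of 0.03 and none past 1.5-fold. Of the markers of other cell types, all 5 endothelial genes were listed at 0, and so were the leukocyte gene PTPRC, the epithelial cadherin CDH1 and the osteoblast factor SP7. Other members of the blood, epithelial and osteoblast lists had levels. The highest were LYZ at 9.45 and 7.66 units, KRT18 at 16.3 and 18.1 and ALPL at 38.2 and 28.4. Fibroblast and pericyte markers were above the minimum in 7 of 10 cases, all 7 higher in slow-cycling cells (median log2 ratio 0.35), and PDGFRA was at 0 in both. Past 1.5-fold were the collagen gene COL1A1, at 4.19 and 2.15 units (1.94-fold), and FAP, at 4.67 and 2.74 (1.71-fold), while the summed level of the whole list, 285 and 256 units, came most of all from COL1A2, at 145 and 140. The macrophage gene CD68, at 5.36 and 3.28 units (1.63-fold), was the 1 blood marker past 1.5-fold. COL1A1, FAP and CD68 all had levels near the minimum of 2 units. Fibroblast and pericyte markers further above it were higher too. THY1 was at 53.5 and 42.2 units (log2 ratio 0.34), DCN at 16.1 and 12.7 (0.35) and PDGFRB at 8.77 and 6.84 (0.36). COL3A1 (0.07) and COL1A2 (0.05) were close to equal. Among all 13444 genes compared, 5.38% were at least 1.5-fold higher in slow-cycling cells. Genes of low level leaned that way as a class. Over 2073 protein-coding genes at 4 to 11.3 units the median log2 ratio was 0.12, and 139 were at least 1.5-fold higher. The mean levels of COL1A1 and FAP lay below that range. The sums were 23.2 and 24.2 units for epithelial, 16.2 and 10.9 for blood, 45.3 and 35.5 for osteoblast and 144 and 148 for neural markers, of which 3 of 6, 2 of 7, 2 of 5 and 2 of 5 were above the minimum. The part of other cell types in the HOX values was not tested.

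The 4 clusters sit on 4 chromosomes, given here on GRCh38 from RefSeq. HOXA, on chromosome 7, holds 11 genes, and HOXB spans 48528526 to 48728750 of chromosome 17 with 10. HOXC spans 53938831 to 54056030 of chromosome 12 and HOXD 176087487 to 176190907 of chromosome 2, with 9 genes each. Promoter sequences, 250 bases before to 50 after a gene's start (RefSeq, GRCh38.p14), were at hand for 20 of the 39 genes. Those of HOXD13, the HOX gene with the highest level, and of HOXA10, the highest of its cluster, are printed. HOXB7 and HOXC11 are the highest of theirs. HOXD12, picked after its values were seen, is added because it lies between HOXD13 and HOXD11, both highly expressed, and was itself near the cut. Capitals mark the letters TATAAA, searched on both strands, where a match and its reverse complement may overlap. Each window surrounds the start that the promoter table lists, which for HOXD13 lies inside the longer gene model. HOXD13 is at chr2:176092471-176092770, HOXD12 at chr2:176099545-176099844, both on the plus strand, and HOXA10 at chr7:27179812-27180111 on the minus strand.
HOXD13: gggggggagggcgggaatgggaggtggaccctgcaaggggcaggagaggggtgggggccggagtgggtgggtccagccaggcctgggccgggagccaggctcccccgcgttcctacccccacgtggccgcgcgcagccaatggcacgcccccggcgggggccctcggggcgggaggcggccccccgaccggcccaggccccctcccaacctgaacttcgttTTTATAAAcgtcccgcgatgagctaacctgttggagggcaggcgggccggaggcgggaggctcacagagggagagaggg
HOXD12: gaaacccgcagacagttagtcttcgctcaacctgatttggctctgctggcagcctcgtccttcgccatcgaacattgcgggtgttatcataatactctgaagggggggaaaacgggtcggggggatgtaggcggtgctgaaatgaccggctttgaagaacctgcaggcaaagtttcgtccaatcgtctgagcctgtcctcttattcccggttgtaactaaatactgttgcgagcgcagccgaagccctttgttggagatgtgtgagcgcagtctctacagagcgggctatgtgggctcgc
HOXA10: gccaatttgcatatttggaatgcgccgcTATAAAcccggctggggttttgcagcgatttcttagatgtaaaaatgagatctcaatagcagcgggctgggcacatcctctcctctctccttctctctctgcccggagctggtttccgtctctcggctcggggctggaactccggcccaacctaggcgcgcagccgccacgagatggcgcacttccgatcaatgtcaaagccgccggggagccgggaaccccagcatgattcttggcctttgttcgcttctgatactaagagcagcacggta

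In HOXD13 the letters TATAAA begin 27 bases before the start, on the gene's own strand, and the overlapping match on the other strand begins at 29. In HOXA10 the match begins 222 bases before the start, and in HOXD12 there is none. The motif TATAAA was in 4 of the 20 HOX promoters (20%), in HOXA3, HOXA9, HOXA10 and HOXD13, against 9.62% of 15464 protein-coding promoters of the same length. The letters GGAAGGAA, a short form of the repeats that the Ewing fusion protein EWSR1-FLI1 binds, were in 1 of 20, in HOXA2, which was listed at 0 in both libraries, against 3.59% of protein-coding promoters. The 10 promoters of genes above the minimum held a median of 23.5 CG pairs (4 to 34), and the 10 of the remaining genes a median of 20.5 (11 to 44). These ranges overlapped, so the number of CG pairs in this window did not separate genes with a level from those without. HOXC4 and HOXC5 share 1 promoter window.

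The posterior genes carried most of the HOX RNA in both libraries. All HOX levels summed to 802 units in slow-cycling and 767 in non-slow-cycling cells. Posterior genes made up 65.8% and 65.2% of that sum, central genes 28.4% and 29.4%, and anterior genes 5.75% and 5.38%. By cluster the sums were 364 and 352 units for HOXD, 260.3 and 240.0 for HOXC, 161.2 and 161.1 for HOXB, and 16.2 and 14.5 for HOXA. The order of the clusters was the same in the libraries, and the 5 genes with the highest mean level held 49.1% and 49.2% of the sum.

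**Figure D1:**
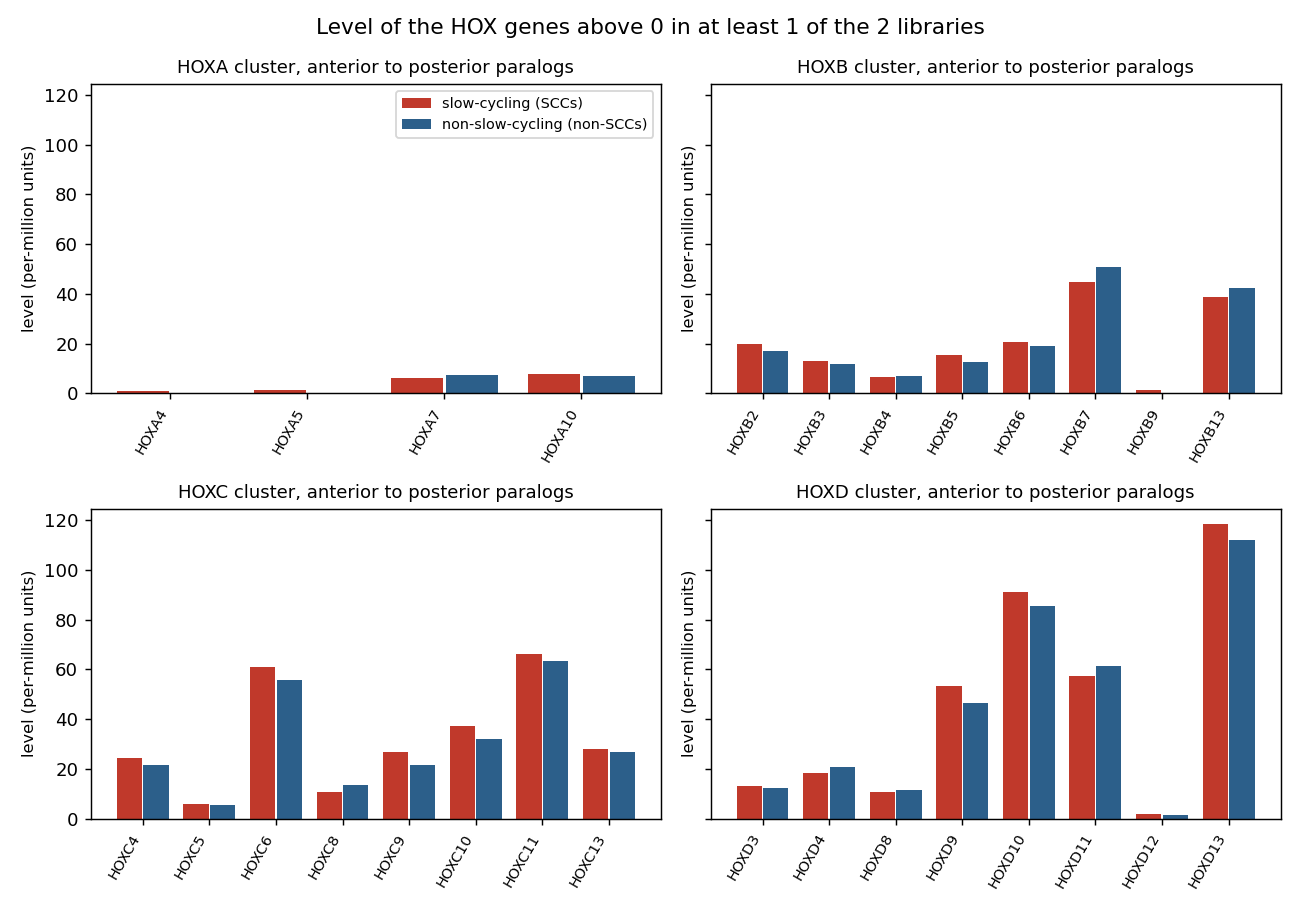
Level of the 28 HOX genes above 0 in at least 1 library, in per-million units (vertical axis, from 0) in the slow-cycling (red) and non-slow-cycling (blue) library, by cluster and in paralog order, 1 library per group and no error bars. HOXD13 is the highest bar at 119 and 112 units, and the HOXA panel stays below 8 units.

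HOXD was the most expressed cluster, through its posterior genes. HOXD13 (Entrez gene 3239), which patterns the digits and the genital tract and is mutated in synpolydactyly, was at 119 units in slow-cycling and 112 in non-slow-cycling cells. That level exceeded 88.4% of the 11833 protein-coding genes compared. HOXD10 (Entrez gene 3236), a lumbar and limb gene, was at 91.0 and 85.5. HOXD11, which shapes the forearm and the kidney together with its HOXA paralog, was at 57.2 and 61.4, and HOXD9 at 53.3 and 46.6. Thus 4 of the 5 posterior genes stood far above the central HOXD4, at 18.5 and 20.8, HOXD8, at 10.7 and 11.4, and the anterior HOXD3, at 13.03 and 12.45. The exception was HOXD12, which lies amid them and was at 1.95 and 1.55 units, below the minimum. HOXD1, at the anterior end, was listed at 0.

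HOXC had a level in 8 of its 9 genes. HOXC11 was the highest, at 66.2 and 63.2 units, and HOXC10, which with HOXD10 specifies lumbar motor neurons, was at 37.1 and 32.1. HOXC13, a gene of hair and nail formation, was at 27.95 and 26.75, and HOXC9, a gene of thoracic identity, at 26.7 and 21.6. HOXC12 was listed at 0 between HOXC11 and HOXC13, the same place in the order that HOXD12 holds in its cluster. Of the central genes, HOXC6 was at 61.1 and 55.8, HOXC4 at 24.6 and 21.5, HOXC8 at 10.6 and 13.5 and HOXC5 at 5.99 and 5.53. The gene models of HOXC4, HOXC5 and HOXC6 start at the same base and overlap over 13936 bases, so how their reads were divided is uncertain.

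HOXB had a mixed pattern. HOXB13, the most posterior gene of the cluster and best known from the prostate, was at 38.9 and 42.6 units although it lies apart from the rest of the cluster. HOXB7 was the highest, at 45.0 and 51.0. Next came HOXB6 at 20.7 and 18.9, the hindbrain gene HOXB2 at 19.9 and 16.9, HOXB5, known from the gut's nervous system, at 15.6 and 12.6, HOXB3 at 13.22 and 11.96, and HOXB4, known from blood stem cells, at 6.69 and 7.12. The HOXB3 model contains the whole of HOXB4, which leaves their split uncertain. Between HOXB7 and HOXB13, HOXB8 was listed at 0 in both libraries and HOXB9 was at 1.20 units and listed at 0. HOXB1 was listed at 0.

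HOXA had the lowest values of the 4 clusters. Only HOXA10, at 7.70 and 6.91 units, and HOXA7, at 6.24 and 7.58, were above the minimum. HOXA5 was at 1.26 and HOXA4 at 1.01 in the slow-cycling library, and both were listed at 0 in the other. The remaining 7 genes were listed at 0 in both. Among them were HOXA9, a driver of leukaemia, and HOXA11 and HOXA13, the paralogs of highly expressed HOXC and HOXD genes. The read-through entry HOXA10-HOXA9, which overlaps the whole of HOXA9 and HOXA10, was listed at 0 as well.

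By paralog group, group 13 had the highest sum, at 185 and 181 units, with HOXD13, HOXB13 and HOXC13 above the minimum and HOXA13 at 0. Groups 10 and 11 came next, at 136 and 124.5 units for group 10 and 123 and 124.6 for group 11, in that order in slow-cycling cells and nearly equal in the others. Group 10 was the only posterior group above the minimum in each cluster that has a member. Group 9 was at 81.3 and 68.2. Group 12 held 1.95 and 1.55 units, all of it HOXD12. Across the 24 compared genes genes of higher paralog number tended to higher levels, with a Spearman rho of 0.56, and of 0.34 over all 39 with the zeros included, given as a description because the genes share libraries and overlapping models.

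The HOX genes differed little between slow-cycling and non-slow-cycling cells. None of the 24 was 1.5-fold higher or lower. Among all 13444 genes compared, slow-cycling cells had 5.38% higher by that much or more, and 1.41% lower. Among the 8848 protein-coding genes in the level range of the HOX genes (5.76 to 115 units) the shares were 1.59% and 0.147%. At such shares a list of 24 would hold few or no such genes, so the count of 0 does not set the HOX genes apart. Their log2 ratios, slow-cycling minus non-slow-cycling, ran from -0.35 to 0.31 with a median of 0.09, against 0.03 over all genes compared. The median absolute log2 ratio was 0.14, against 0.12 in the protein-coding genes of the same range. Of the 24, 20 lay between the 10th and the 90th percentile of those genes (-0.20 and 0.29 on the log2 scale).

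**Figure D2:**
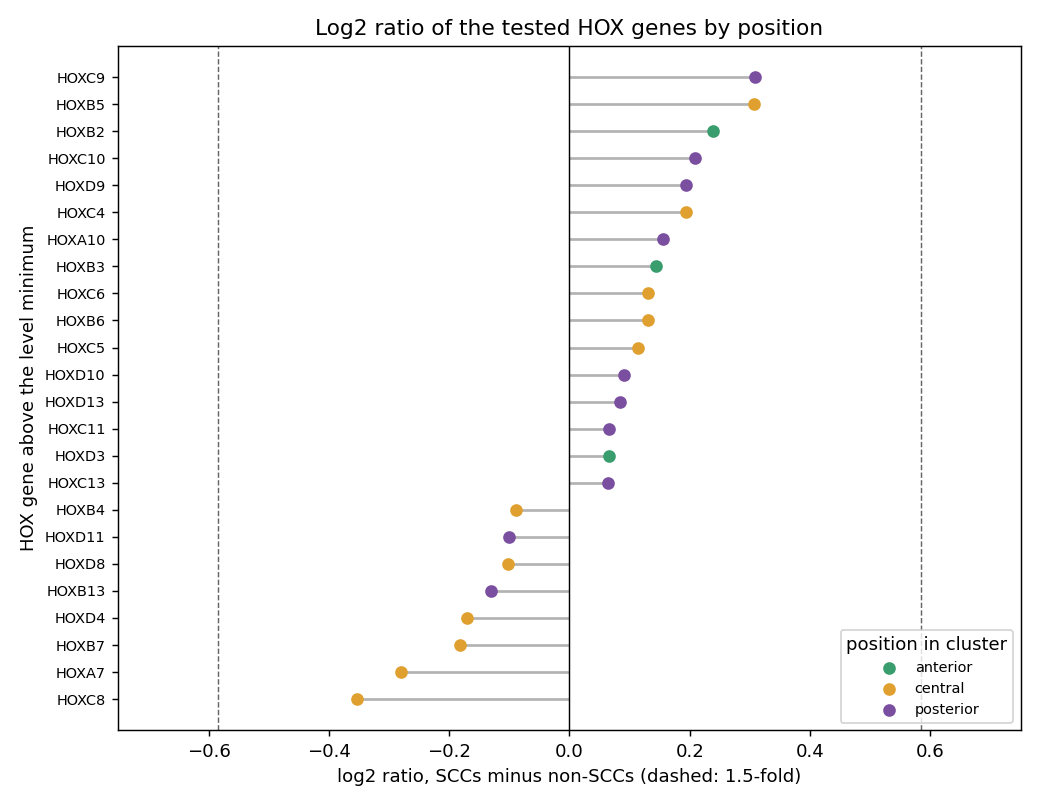
Log2 ratio (horizontal axis, slow-cycling minus non-slow-cycling) of the 24 HOX genes above the level minimum, sorted and coloured by position, with dashed lines at 1.5-fold. All points lie between -0.35 (HOXC8) and 0.31 (HOXC9), inside the dashed lines.

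Of the 24 genes, 16 had a ratio above 0 and 8 below, against 57.3% above 0 in the protein-coding genes of the same level range. HOXC8 had the largest difference, at 0.78-fold (log2 ratio -0.35), and was the 1 member past a log2 difference of 0.322, a size that 10.9% of the range passed. HOXA7 followed among the lower genes, at 0.82-fold (-0.28), then HOXB7 (-0.18) and HOXD4 (-0.17). On the higher side HOXC9 was at 1.24-fold (0.31), HOXB5 also at 1.24-fold (0.31), HOXB2 at 1.18-fold (0.24) and HOXC10 at 1.16-fold (0.21). The most expressed genes were close to equal. HOXD13 was at 1.06-fold, HOXD10 at 1.06-fold, HOXC11 at 1.05-fold and HOXD11 at 0.93-fold.

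By position, 8 of 10 posterior genes and 3 of 3 anterior genes had a ratio above 0, with medians of 0.09 and 0.14 on the log2 scale. Of 11 central genes 5 were above 0, with a median of -0.09. By cluster, 7 of 8 HOXC genes were higher, 4 of 7 in HOXB, 4 of 7 in HOXD and 1 of 2 in HOXA. The log2 ratio of the summed level was 0.16 for HOXA, 0.12 for HOXC, 0.05 for HOXD and 0.00 for HOXB. That of HOXA rests on sums of 16.2 and 14.5 units that include 2 genes listed at 0 in non-slow-cycling cells, and its direction turned when the values were read as log2(value + 1). The order of the genes was nearly the same in the libraries. The first 3 places were HOXD13, HOXD10 and HOXC11 in both, and Spearman's rho over the 24 genes was 0.98, a description across genes that are not independent.

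Other transcripts from within the clusters were mostly lower in the slow-cycling library. Such long non-coding RNAs lie antisense to or between the HOX genes, and some of them, such as HOTAIR in HOXC, are known to bind chromatin regulators. Of 16 found in the tables, 5 were listed at 0 in both libraries, 2 were below the minimum and 9 could be compared. Of these 9, 8 had a ratio below 0, with a median of -0.23, against 38.8% of the 884 long non-coding genes compared, whose median was 0.08. At least 1.5-fold lower were 2 of the 9, against 5.20% of long non-coding genes. In either direction 18.2% of these passed 1.5-fold, 115 of the 884 on the higher side, where none of the 9 lay.

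HOXC-AS1, which lies just upstream of HOXC9, was at 4.45 units in slow-cycling and 7.67 in non-slow-cycling cells, 0.58-fold (log2 ratio -0.79). HOXD-AS2, between HOXD8 and HOXD4, was at 3.96 and 6.32, 0.63-fold (-0.67). Their levels are low, and among 297 long non-coding genes of like level (4 to 11.3 units) the log2 ratios had an SD of 0.35 across genes, with 14 at least 1.5-fold lower. HOTAIR, the most abundant, was at 36.9 and 43.8 (-0.25). HOXC13-AS was at 6.14 and 7.34 and HOXC-AS2 at 6.63 and 7.57. HOXB-AS1, at 4.82 and 5.67, and HOXB-AS3, at 5.17 and 6.07, both had a log2 ratio of -0.23. HOXC-AS3, which overlaps the start of HOXC10, was the 1 on the higher side, at 10.1 and 8.03 (0.33), and HOXC10 itself had a ratio of 0.21. HOXA10-AS was at 4.59 and 4.91. HOTTIP, HOTAIRM1 and HAGLR, known from the ends of HOXA and HOXD, were listed at 0.

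**Figure D3:**
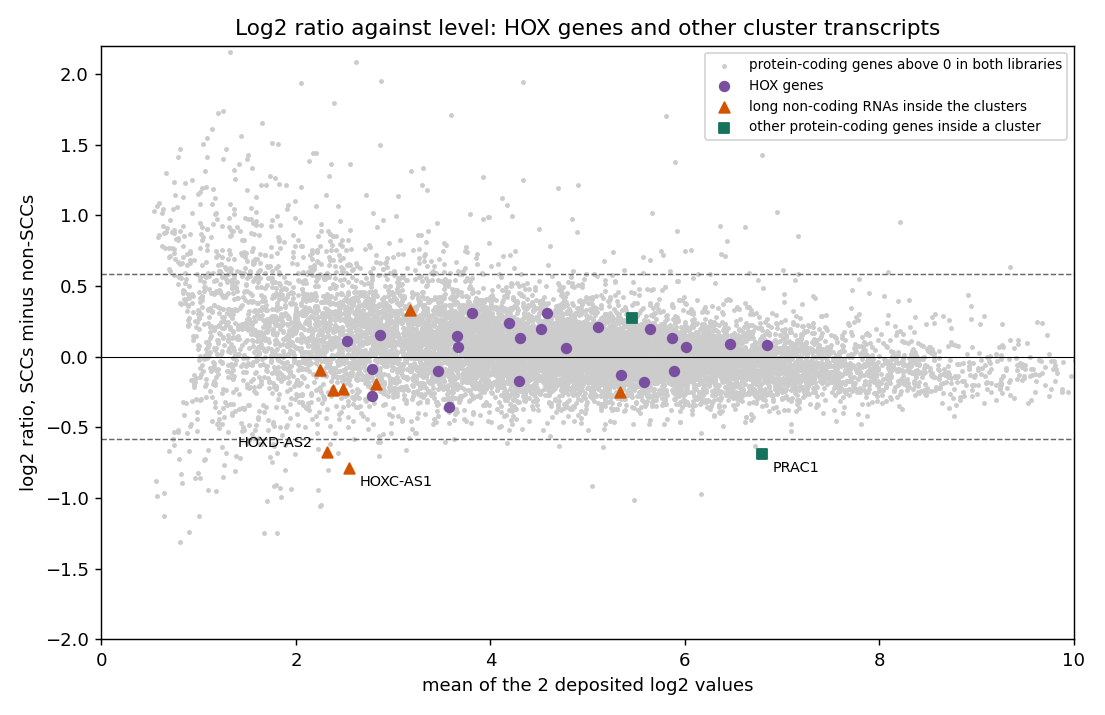
Log2 ratio (vertical axis, slow-cycling minus non-slow-cycling) against the mean of the deposited log2 values, for protein-coding genes above 0 in both libraries (grey, of which 107 of 11780 fall outside the axes), the 24 HOX genes (purple), 8 long non-coding RNAs lying wholly within a cluster (orange) and PRAC1 and PRAC2 (green). Dashed lines mark 1.5-fold. The purple points stay between the lines, while HOXC-AS1, HOXD-AS2 and PRAC1 lie below the lower one.

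PRAC1 stood out among the protein-coding neighbours. It encodes a small nuclear protein known from prostate and rectum and lies between HOXB9 and HOXB13, at 48721719 to 48722518 of chromosome 17. Its level was 87.2 units in slow-cycling and 140.2 in non-slow-cycling cells, 0.62-fold (log2 ratio -0.69), where 0.147% of the protein-coding genes in the HOX level range were 1.5-fold lower or more. Short transcripts as a class were lower in the slow-cycling library: the median log2 ratio was -0.20 over 137 protein-coding genes of like level whose longest transcript is under 1000 bases (SD 0.17 across genes), and PRAC1, whose longest transcript is 386 bases, was the 1 of them past 1.5-fold. That of each HOX gene compared is 1371 bases or more. The part of transcript length in the PRAC1 value was not tested. PRAC2, beside HOXB13, was named after its values were seen and was at 48.3 and 39.9 (0.27). The PRAC2 gene model, 48718666 to 48724758, contains the whole of PRAC1, which leaves the split of reads between PRAC1 and PRAC2 uncertain. HOXB13, next to both, was at 0.91-fold. Whether reads were counted by strand is not given in the sources used here, so antisense pairs cannot be told apart with certainty.

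Of 15 flanking genes compared outside the clusters, 11 had a ratio above 0 and 4 below, with a median of 0.12 and none past 1.5-fold. The protein-coding genes of the HOX level range had 57.3% above 0 and a median of 0.03. The highest was SKAP2, beside HOXA, at 3.14 and 2.11 units (0.58). HNRNPA1, at 2666 and 2902 units, ATP5G2, at 305 and 329, and CBX5, at 188.8 and 165.2, were the most abundant. The 8 microRNA genes inside the clusters were listed at 0, and the mRNA kit used does not measure mature microRNAs.

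HOX proteins bind DNA together with the TALE homeodomain proteins of the PBX, MEIS and PKNOX families. Of these 9 cofactor genes 8 were above the minimum, and all 8 had a ratio above 0, with a median of 0.10. In the protein-coding genes of the HOX level range 57.3% were above 0. MEIS3 was the 1 past 1.5-fold, at 4.59 units in slow-cycling and 1.74 in non-slow-cycling cells, 2.64-fold (log2 ratio 1.40). MEIS3 met the minimum of 2 units through the slow-cycling library only. Among all genes compared 5.38% were at least 1.5-fold higher. At mean deposited values of 1 to 2, log2 ratios had an SD of 0.38 to 0.57 across genes, by length class. The abundant members were close to equal: PBX2 was at 117 and 112 units and MEIS1 at 43.0 and 40.7. PBX3 was at 11.5 and 8.61 (0.41), and PKNOX2 was listed at 0.

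The machinery that keeps HOX genes silent or active differed by little too. Polycomb complexes repress HOX genes, and all 23 of their genes were compared: 16 had a ratio above 0 and 7 below, with a median of 0.10 and none past 1.5-fold. For comparison, 57.3% of the protein-coding genes in the HOX level range were above 0. The methyltransferase EZH2 was at 370 and 409 units, its partners RBBP4 at 201 and 196 and RBBP7 at 153 and 169. Trithorax and MLL proteins keep HOX genes on, and 7 of their 14 genes were above and 7 below 0, with a median of 0.01 and none past 1.5-fold. WDR5 was at 120.6 and 135.8 units, PSIP1 at 93.5 and 91.3 and DPY30 at 59.9 and 62.5. MEN1, a scaffold of the MLL complex, was at 50.7 and 60.8 (-0.26).

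Of the regulators that set HOX genes in the embryo, several were listed at 0. The CDX1, CDX2 and CDX4 genes, which activate central HOX genes, and the retinoic acid receptor RARB were among them. Of 14 such genes 9 were compared and 7 were higher, with a median of 0.12, against 57.3% higher in the protein-coding genes of the HOX level range. EGR2, which activates HOXB2 in the hindbrain and is also an immediate early gene, was at 96.4 and 37.1 units, 2.60-fold, the 1 past 1.5-fold. CTCF, which divides clusters into domains, was at 60.1 and 54.7. Of 12 homeobox genes linked to the clusters by origin or position, among them EVX1, EVX2 and PDX1, 11 were listed at 0, and MEOX1 was at 5.35 and 4.40.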

How the data were processed

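RNA was measured in 2 libraries of SK-ES-1, made with a stranded mRNA kit, per the labels' protocols. The submitters' processing notes name hg38. The authors deposited 1 column of normalized log2 values per library, per the file headers, and the headers name LRC and non-LRC where the labels name SCCs and non-SCCs; groups follow the labels. Which aligner, counting tool and annotation served is not given in the sources used here. The design assumed log2(value + 1). The deposited log2 values were instead read as log2 of a per-million value with values under 1 set to 0: 2 raised to the 14606 and 14197 values above 0 sums to 998244 and 998317, and genes are spread evenly down to 0 (1318 and 1219 values from 0 to 1, 1360 and 1306 from 1 to 2). Log2 ratios, as differences of deposited values, are the same in both readings. Folds between levels are not: read as log2(value + 1), those of genes near the cut would lie further from 1. All 13 protein-coding mitochondrial genes were listed at 0. At equal level, the log2 ratios of short genes spread more than those of long genes (SD 0.57 against 0.38 at mean values of 1 to 2), as values per transcript length do. At mean values of 6 to 8 the SDs were close, 0.17 under 1000 bases and 0.16 at 1000 or more. Levels were compared between genes as per-length values, which is inferred and not given in the sources used here.

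Lines of 1 gene ID that differ in a locus suffix (174 of 53826) were summed. Genes with a deposited value of at least 1 (2 units) in at least 1 library were compared, 13444 in all. A ratio is the difference of the deposited values, with no pseudocount beyond the cut at 1 and no scaling, since the median ratio was 0.03. A fold of 1.5 was counted. Of each pathway list, members past that fold and up to 3 of highest level are named, and of the marker lists those past it; any other gene named was chosen after its values were seen. Single values of a few genes are not reported here. The members and lists were chosen with earlier results of these data known. Coordinates and gene classes came from RefSeq (GRCh38.p14, 51252 gene IDs matched), transcript lengths from GENCODE 29. Computation used Python 3.11.15, pandas 2.3.3 and numpy 2.4.6; the counting code was tested on simulated data. Alternatives were other filters, pseudocounts, scalings and fold thresholds.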

Additional observations from a re-analysis of the deposited data

How the results depend on the processing

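The count of 0 HOX genes past 1.5-fold was the same with a pseudocount of 0.1, after centring the ratios on the median gene, with upper quartile scaling, and under the 3 other level filters. At 2-fold it was also 0, and at the smaller threshold of 0.322 on the log2 scale it was 1, HOXC8. The largest of the 24 ratios was 0.35 in size, and 1.5-fold is 0.585 on the log2 scale. Pseudocounts shrink ratios, the scalings shift them by 0.032 and 0.005, and the stricter filters kept the same 24 genes. These settings and the 2-fold threshold therefore could not have changed the count of 0, and they do not check it. The median log2 ratio of 0.09 was 0.056 after that centring, 0.10 with no level filter, and, chosen after seeing the data, 0.067 without HOXC4, HOXC5 and HOXC6. With no filter 28 HOX genes were compared, and with the stricter filters 24. Over pseudocounts and scalings, the ratios of the 24 genes (96 values, each gene once per setting) moved by at most 0.036 on the log2 scale. None changed sign. The scalings take 0.032 and 0.005 off every ratio, less than the smallest HOX ratio in size (0.063, HOXC13), so they could not change a sign. A pseudocount added to both levels cannot change a sign either. Without the highest member of each cluster, the summed levels in the slow-cycling and non-slow-cycling library were 8.51 and 7.58 units for HOXA, 116 and 110.0 for HOXB, 194 and 177 for HOXC and 246 and 239.7 for HOXD. Read as log2(value + 1), a reading added after seeing the data, the sums were 12.2 and 12.5 for HOXA and 153 and 154 for HOXB, so that the order of the libraries turned in both, while HOXC and HOXD kept theirs. Reading the values as log2(value), listed as an alternative, became the main reading. No paired analysis was possible because each group has 1 library. Leaving out a library was not possible for the same reason. Low genes, HOXA above all, are limited most by the cut at 1 unit.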

Other observations

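The small differences had a common direction within several paralog groups, a pattern noticed in the data and not tested. All 4 compared genes of groups 7 and 8 had a ratio below 0: HOXA7 (-0.28), HOXB7 (-0.18), HOXC8 (-0.35) and HOXD8 (-0.10). They lie on 4 different chromosomes. All 12 compared genes of groups 2, 3, 5, 6, 9 and 10 had a ratio above 0, from 0.07 for HOXD3 to 0.31 for HOXC9. These groups were gathered by sign after the values were seen, so the counts of 4 and 12 follow from that choice. Group 2 had 1 compared gene, and groups 3, 5, 6 and 9 had 2 each. In the protein-coding genes of the same level range 57.3% had a ratio above 0. In group 4, HOXC4 (0.19) was above 0 while HOXB4 (-0.09) and HOXD4 (-0.17) were below, and in group 11 HOXC11 (0.07) and HOXD11 (-0.10) parted. Group 13 had HOXD13 (0.08) and HOXC13 (0.06) above 0 and HOXB13 (-0.13) below. Each of these differences is below 1.3-fold between 1 library and 1 library.

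Genes listed at 0 or near the cut also lay at like places. HOXC12 was listed at 0 and HOXD12 was at 1.95 and 1.55 units, in both cases between genes of groups 11 and 13 that were well above the minimum. In HOXB, HOXB8 was listed at 0 and HOXB9 was at 1.20 units and listed at 0, between HOXB7 and HOXB13. PRAC1, in the gap before HOXB13, had a level of 87.2 and 140.2 units, above every HOX gene in the non-slow-cycling library and below HOXD13 and HOXD10 in the slow-cycling one.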
